A study of Mus musculus with 32 samples.

Results

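The hippocampal transcriptome of male mice without a functional *Kdm5c* gene (*Kdm5c*-KO) was compared with that of wild-type (WT) males. The comparison used 4 *Kdm5c*-KO and 4 WT hippocampal libraries, 8 of the 32 RNA-seq libraries of the study, and every gene of the deposited hippocampal gene table other than the spike-in rows, 53715 genes in all. The study crossed mice carrying a *Kmt2a* mutation with mice carrying a *Kdm5c* mutation and sequenced the hippocampus and the amygdala of male offspring of 4 genotypes, WT, *Kdm5c*-KO, *Kmt2a* heterozygous (*Kmt2a*-HET) and, with both mutations, double mutant (DM), 4 mice each, with both regions taken from each of the 16 mice. It asked how loss of a writer and loss of an eraser of histone H3 lysine 4 (H3K4) methylation, each linked to an intellectual disability syndrome, affect the brain alone and together.

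All mice were adult F1 hybrids of 129 and C57BL/6J parents, the father *Kmt2a*+/- on 129S1/SvImJ and the mother *Kdm5c*+/- on C57BL/6J, so that WT and *Kdm5c*-KO males shared a hybrid background and took their X chromosome from a C57BL/6J mother. The deletion is constitutive, and no cell type or age was spared. The RNA came from whole dissected tissue, and in such bulk samples fewer cells of a type cannot be told apart from less RNA per cell.

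KDM5C is encoded on the X chromosome and removes methyl groups from di- and trimethylated H3K4, a mark found at enhancers and active promoters. Loss-of-function variants in the human gene cause X-linked intellectual disability. In neurons the enzyme is known to help keep germline genes silent, the genes for meiosis, spermatogenesis and oogenesis that are normally read only in the testis or ovary. The members of the same family are KDM5A, KDM5B and the Y-linked KDM5D, and KMT2A is one of the enzymes that place H3K4 methylation.

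The hippocampal libraries held 19322259 to 27798976 gene counts each. One library stood apart. *Kdm5c*-KO replicate 1 had a summed normalised count of 12 choroid plexus markers (transthyretin and others) of 107401, against 999 to 25984 in the WT and 1490 to 26722 in the other *Kdm5c*-KO libraries, all 12 markers being detected in all 8 libraries. Its summed count of 10 striatal markers was 22600 against 8581 to 10618 in WT, and its 6 dentate granule cell markers summed to 2627 against 4692 to 8778. Its excitatory neuron markers summed to 132602 against 184431 to 203720 in WT. Mitochondrially encoded genes took 6.69% of its counts against 4.05% to 5.75% in WT, and its long genes were low relative to its short genes (median log2 deviation from the mean of all libraries in the upper minus the lower length quartile of abundant genes, -0.33 against -0.19 to 0.29 in WT), the lowest of the 16 hippocampal libraries. On this length measure the next lowest libraries were replicate 1 of *Kmt2a*-HET (-0.23), of WT (-0.19) and of DM (-0.17). That skew was therefore shared by replicate number and was not particular to this library. The part of these differences in the results was not tested. The number of calls and the counts of lists that changed are therefore also given without this library. In WT replicate 4 the 7 neocortical markers summed to 9186, against 4119 to 4710 in the other WT and 2981 to 4918 in the *Kdm5c*-KO libraries. Without it the lower genes *Ddit4l*, *Gabrd*, *Gm26673*, *Gm37176*, *Kcnk12*, *Ier5l*, *Akap7* and *Ubqln4*, described further on, lost their calls, and the part of neocortex in them was not tested. Markers of the hippocampus itself, excitatory neurons and CA1, CA2, CA3 and dentate granule cells, were all detected in all 8 libraries.

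The targeted gene gave a partial check of the labels. *Kdm5c* normalised counts, which are counts divided by a size factor for the depth of each library, were 1483, 1888, 1426 and 1549 in the WT and 1145, 1355, 1239 and 1274 in the *Kdm5c*-KO mice. All 4 *Kdm5c*-KO libraries lay below all 4 WT libraries, but the mean was still 0.790 times that of WT (log2 fold change -0.34 ± 0.09 SE, DESeq2 adjusted p = 0.0299). Counts over exons that the deletion leaves in place cannot show whether protein was made. The call was lost without *Kdm5c*-KO replicate 1 (adjusted p = 0.198), *Kdm5c*-KO replicate 3 or WT replicate 2, with the 2 groups fitted alone, with spike-in scaling and by edgeR. *Kdm5c* was lower but not called in DM against *Kmt2a*-HET mice (log2 fold change -0.26 ± 0.09, adjusted p = 0.351) and in the amygdala (-0.32 ± 0.12, adjusted p = 0.467). The protein-coding transcript Kdm5c-201 carried 55.4% of the difference, with estimated normalised counts of 334, 274, 298 and 185 in WT and 176, 138, 20.3 and 20.01 in *Kdm5c*-KO mice, lower in every *Kdm5c*-KO library. Transcript counts are model-based divisions of reads among overlapping transcripts and were not tested. The paralogues *Kdm5a* (log2 fold change -0.05 ± 0.16), *Kdm5b* (-0.05 ± 0.12) and *Kdm5d* (-0.03 ± 0.15) and the writer *Kmt2a* (-0.11 ± 0.24) did not pass the test, and for each of them the groups overlapped. Among 28 H3K4 methylation enzymes and cofactors *Kdm5c* was the 1 called member, where 0.181% of all tested genes were called lower, and 0 were called without *Kdm5c*-KO replicate 1.

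Of 19302 genes with an adjusted p, 195 were called at an adjusted p under 0.1 (DESeq2), which is 1.01% of the genes tested. They comprised 160 genes higher in *Kdm5c*-KO (0.829%) and 35 lower (0.181%), and 1577 genes had an unadjusted p under 0.05. The 4 *Kdm5c*-KO values lay wholly outside the 4 WT values for 132 of the 160 higher and 27 of the 35 lower genes, where such a separation was seen upward for 2.38%, downward for 1.77% and in either direction for 4.15% of all tested genes. Higher and lower genes differed in size and in level. The median log2 fold change was 1.22 for the higher and -0.68 for the lower genes, while the median of all tested genes was -0.00072. A log2 fold change over 1 in size was seen for 97 higher and 7 lower genes. Behind these folds stood a median WT normalised count, not divided by gene length, of 78.1 for the higher, 513 for the lower and 235 for all tested genes, and 28 higher genes had a WT mean under 10, against 0 lower genes. Most called genes were protein coding, 138 of the higher and 31 of the lower. Without *Kdm5c*-KO replicate 1, 125 genes were called (0.583% of those then tested), among them 89 of the 160 higher and 10 of the 35 lower genes, and without WT replicate 2, WT replicate 4 or *Kdm5c*-KO replicate 3 the number was 109, 121 or 118. Scaling by the spike-in RNA in place of the genes moved the median of all tested genes by 0.18 on the log2 scale and gave 17 higher and 0 lower calls, with no called gene changing sign. The spike-in share itself varied within WT, from 0.0503% to 0.295% of counts. Spike-in size factors there ran from 0.42 to 1.93, against 0.89 to 1.18 for those from genes. This scaling therefore added spread within groups, and its shift cannot be read as a change in total RNA.

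*Dnah1* and *Rps4l* had the smallest adjusted p. *Dnah1*, an inner arm dynein heavy chain of motile cilia and sperm flagella, had normalised counts of 151, 177, 169.8 and 200.3 in WT and 872, 929.6, 771 and 715 in *Kdm5c*-KO mice. The lowest *Kdm5c*-KO value was more than 3 times the highest WT value, and the log2 fold change was 2.23 ± 0.13 (DESeq2 adjusted p = 1.23e-61). Both listed transcripts rose together, Dnah1-202 with 61.9% and the protein-coding Dnah1-201 with 38.1% of the difference. *Rps4l*, related to ribosomal protein S4 and annotated in GENCODE as a transcribed processed pseudogene, had 422, 221, 354 and 304 in WT and 1522, 1522, 1733 and 1451 in *Kdm5c*-KO mice (log2 fold change 2.26 ± 0.19, adjusted p = 3.89e-28). Its groups were far apart as well. *Rps4l* overlaps *Tmtc1*, and *Dnah1* overlaps *Gm35823*, each on the opposite strand. The library kit keeps the strand of the RNA, but how strand was treated in counting is not given in the sources used here.

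Among genes of neuronal signalling, *Pnck*, an X-linked calcium/calmodulin-dependent protein kinase of neurons, had 1489, 1165, 1209 and 1421 in WT and 3433, 3328, 3719 and 3175 in *Kdm5c*-KO mice. The WT and *Kdm5c*-KO ranges were both narrow and did not meet (log2 fold change 1.37 ± 0.13, adjusted p = 9.90e-24), and transcript Pnck-202 carried 80.8% of the difference. *Cacng6*, a gamma subunit of voltage-gated calcium channels, had 30.4, 27.8, 47.6 and 22.1 in WT and 137, 538, 439 and 393 in *Kdm5c*-KO mice (log2 fold change 3.57 ± 0.34, adjusted p = 1.39e-21). Here *Kdm5c*-KO replicate 1 was the lowest of its group, and without it the log2 fold change was 3.85. Of 23 tested voltage-gated calcium channel and gamma subunit genes, *Cacng6* and *Cacna2d4* (log2 fold change 0.94 ± 0.25, adjusted p = 0.0314), an auxiliary alpha2delta subunit, were called, both higher (0.829% of all tested genes), and the median of the list was -0.03. Without *Kdm5c*-KO replicate 1 *Cacna2d4* had an adjusted p of 0.232.

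Metabolic genes followed. *Pgam2*, the muscle form of phosphoglycerate mutase, had 210.3, 181, 172 and 141 in WT and 644, 699.9, 743 and 507 in *Kdm5c*-KO mice. Every *Kdm5c*-KO value exceeded every WT value by more than 2-fold (log2 fold change 1.88 ± 0.21). *Gaa*, the lysosomal acid alpha-glucosidase that degrades glycogen, had 10393, 9549, 9072 and 9488 in WT and 17103, 16663, 17717 and 15369 in *Kdm5c*-KO mice. Its rise was smaller in fold but uniform (log2 fold change 0.80 ± 0.10, adjusted p = 3.22e-13), and Gaa-203 carried 93.9% of it. *Gamt*, which makes the last step of creatine synthesis, had 222, 189.8, 206 and 171 in WT and 392, 301, 420.4 and 354 in *Kdm5c*-KO mice (log2 fold change 0.90 ± 0.14). *Ddo*, which oxidises D-aspartate, rose with a log2 fold change of 1.01 ± 0.16, and *Ido2*, a tryptophan-degrading dioxygenase, with 1.89 ± 0.31. In both the *Kdm5c*-KO and WT values stayed apart. The remaining named higher genes were *6330403K07Rik* (log2 fold change 0.97 ± 0.12), the scavenger receptor gene *Scarf2* (1.32 ± 0.17), *BC024139* (2.34 ± 0.36), which overlaps *Eppk1* on the same strand, and *Pyroxd2* (1.44 ± 0.22). These genes and *Tex14*, a germline gene described further on, belong to the 15 higher genes of smallest adjusted p with separated groups, and all 15 were also called with each of the 8 libraries left out in turn.

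**Figure D1:**
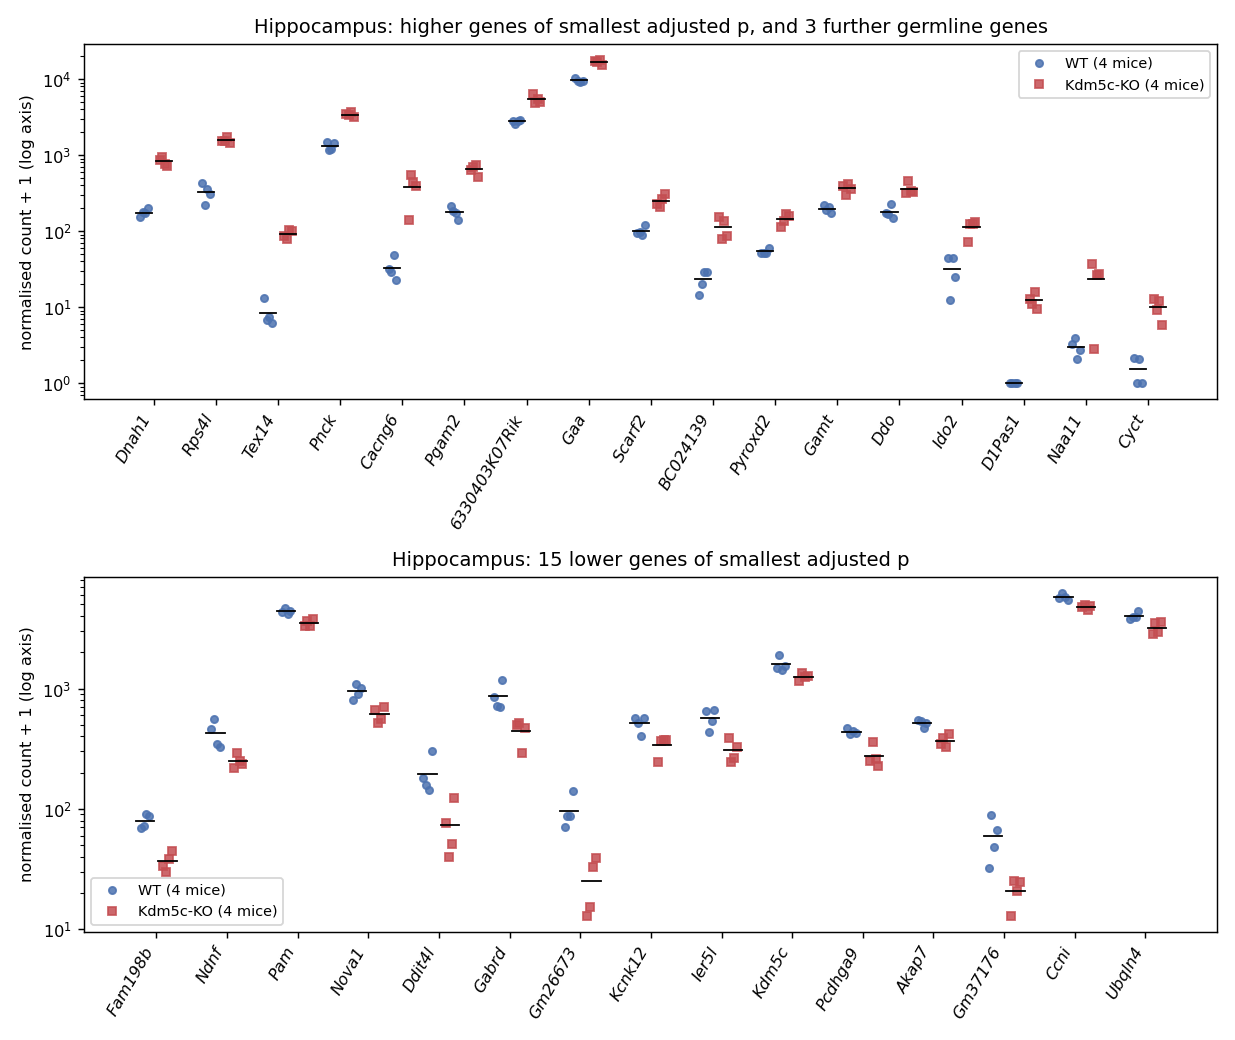
Normalised count plus 1 (log axis) of each hippocampal library for higher genes of smallest adjusted p among those whose groups did not overlap and the germline genes D1Pas1, Naa11 and Cyct (upper panel) and for 15 lower genes chosen likewise (lower panel). Circles are the 4 WT and squares the 4 Kdm5c-KO mice, and black bars are group means. The separation of these genes follows from how they were chosen, and of the 3 added germline genes Naa11 has a Kdm5c-KO value (1.80) inside the WT range.

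Germline genes were examined as a list of 59 genes for meiosis, spermatogenesis, oogenesis and the piRNA pathway. Of these, 11 had 0 counts in all 8 libraries, 34 passed the filters on low counts, and 4 were called, all higher, where 0.829% of all tested genes were. The median log2 fold change of the 34 was 0.24, with 19 above and 15 below 0, and 2 were called without *Kdm5c*-KO replicate 1 (0.583% of all genes then tested). *Tex14*, a protein of the bridges between dividing germ cells, had 12.4, 5.75, 6.49 and 5.09 in WT and 84.7, 77.5, 103 and 99.4 in *Kdm5c*-KO mice. The groups were far apart (log2 fold change 3.65 ± 0.34, adjusted p = 6.72e-24), and 98.8% of the difference was in Tex14-201. *D1Pas1*, a testis DEAD-box RNA helicase, had no count in any WT library and 11.9, 9.91, 14.8 and 8.52 in the *Kdm5c*-KO mice (adjusted p = 1.50e-04). Against a floor of 3 counts per WT library it was at least 3.75-fold higher. *Cyct*, the testis form of cytochrome c, had 1.12, 0, 1.08 and 0 in WT and 11.9, 8.11, 10.9 and 4.73 in *Kdm5c*-KO mice (adjusted p = 0.0423, and 0.132 without *Kdm5c*-KO replicate 1). Its counts were low, and the call was also lost without *Kdm5c*-KO replicate 3, WT replicate 2 or WT replicate 4. *Naa11*, a testis N-terminal acetyltransferase, had 2.25, 2.88, 1.08 and 1.70 in WT and 35.8, 1.80, 25.7 and 26.5 in *Kdm5c*-KO mice (adjusted p = 0.0196, and 0.141 without replicate 1). In replicate 2 it stayed within the WT range.

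Other germline genes did not pass the test. *Ddx4*, the germ cell helicase, had 65.2, 66.1, 45.4 and 31.4 in WT and 68.4, 80.2, 57.4 and 74.8 in *Kdm5c*-KO mice, and *Zar1*, an oocyte factor, had 1.12, 0, 4.33 and 0 in WT and 11.9, 7.21, 3.96 and 18.0 in *Kdm5c*-KO mice (adjusted p = 0.233). Both overlapped between groups. *Dazl* (log2 fold change -0.67 ± 0.27), *Sycp1* (-0.06 ± 0.68) and *Brdt* (-0.16 ± 0.13), genes for germ cell RNA binding, the synaptonemal complex and spermatid chromatin, were detected in WT hippocampus and overlapped between groups. Their levels were between 0 and 281 normalised counts. Outside the list, and picked after their values were seen, the called genes held *Ccnb1ip1* (2.86 in WT and 19.4 in *Kdm5c*-KO on average), needed for meiotic crossing over, *Rnf17* (12.2 and 33.3), of the piRNA pathway, *Tcfl5* (10.05 and 51.5), a transcription factor of spermatocytes, and *Trim71* (66.7 and 145), a stem cell RNA-binding protein. None of 22 components of the silencing complex PRC1.6 and related germline gene silencers was called, with log2 fold changes from -0.27 to 0.27.

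The promoters of the 4 called germline genes and of *Dnah1*, the gene of smallest adjusted p, are shown because the E2F6-containing complex that silences germline genes recognises the letters GCGGGA. A gene whose site lies on the other strand shows them as TCCCGC. Each of the 5 promoters held a match. They are the 250 bases before and 50 after the RefSeq start in GRCm38.p6, read 5′ to 3′ on the strand of the gene, with the match in capitals. *Dnah1* is chr14:31323847-31324146 (minus strand), *Tex14* chr11:87404815-87405114 (plus), *D1Pas1* chr1:186967166-186967465 (plus), *Naa11* chr5:97392281-97392580 (minus) and *Cyct* chr2:76360404-76360703 (minus).
Dnah1: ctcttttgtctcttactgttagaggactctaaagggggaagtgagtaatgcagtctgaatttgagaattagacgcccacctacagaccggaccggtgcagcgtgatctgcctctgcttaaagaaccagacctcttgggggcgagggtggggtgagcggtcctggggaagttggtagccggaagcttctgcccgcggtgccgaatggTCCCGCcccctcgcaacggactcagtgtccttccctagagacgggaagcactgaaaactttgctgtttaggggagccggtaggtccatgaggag
Tex14: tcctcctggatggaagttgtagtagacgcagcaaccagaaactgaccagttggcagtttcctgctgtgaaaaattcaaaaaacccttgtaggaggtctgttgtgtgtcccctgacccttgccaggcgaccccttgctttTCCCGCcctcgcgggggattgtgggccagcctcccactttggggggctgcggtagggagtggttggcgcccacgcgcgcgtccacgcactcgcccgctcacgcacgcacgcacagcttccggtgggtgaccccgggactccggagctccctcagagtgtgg
D1Pas1: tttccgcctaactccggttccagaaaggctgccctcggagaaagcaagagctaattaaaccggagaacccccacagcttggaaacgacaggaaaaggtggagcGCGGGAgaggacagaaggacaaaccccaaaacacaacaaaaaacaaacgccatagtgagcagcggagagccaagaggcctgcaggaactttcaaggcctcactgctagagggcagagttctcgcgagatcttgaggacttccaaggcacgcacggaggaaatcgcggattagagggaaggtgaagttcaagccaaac
Naa11: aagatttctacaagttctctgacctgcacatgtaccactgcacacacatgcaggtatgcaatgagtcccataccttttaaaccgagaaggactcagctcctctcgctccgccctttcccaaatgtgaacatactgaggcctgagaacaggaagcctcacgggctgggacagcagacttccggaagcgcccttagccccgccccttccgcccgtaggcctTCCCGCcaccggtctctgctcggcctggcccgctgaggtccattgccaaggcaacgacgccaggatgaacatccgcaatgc
Cyct: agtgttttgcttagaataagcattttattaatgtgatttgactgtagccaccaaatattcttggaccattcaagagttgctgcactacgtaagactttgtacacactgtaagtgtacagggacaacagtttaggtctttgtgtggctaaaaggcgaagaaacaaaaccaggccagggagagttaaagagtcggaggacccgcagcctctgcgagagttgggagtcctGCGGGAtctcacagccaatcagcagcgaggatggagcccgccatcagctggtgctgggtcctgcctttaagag
Each promoter had 1 match, whose first base lay 44 bases before the start in *Dnah1*, 111 in *Tex14*, 147 in *D1Pas1*, 31 in *Naa11* and 23 in *Cyct*. None had the E-box CACGTG. The RefSeq table lists more than 1 promoter for some genes and none for others. Of 16649 promoters of 13072 tested genes, 32.0% held the E2F letters and 9.22% the E-box, on either strand. Among 163 promoters of 119 genes called higher the shares were 22.1% and 10.4%, among 26 promoters of 20 genes called lower 42.3% and 7.69%, and among 58 promoters of 50 genes of the germline list 46.6% and 34.5%. The higher genes had a median of 8 CG pairs per promoter, against 18 for tested genes. A match describes letters in the window and does not show binding.

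Of the genes of motile cilia 10 were called higher. All but *Dnah1*, *Dnah3* and *Dnah12* were highest in *Kdm5c*-KO replicate 1. The list held 45 genes of the axoneme and its assembly, 43 of them measured and tested, and the 10 called, where 0.829% of all tested genes were called higher, were *Dnah1*, *Cfap43*, *Dnali1*, *Ak7*, *Rsph4a*, *Cfap44*, *Dnah3*, *Tekt1*, *Dnah12* and *Dnah6*. The median log2 fold change of the 43 was 1.02, and 37 were above 0. By edgeR *Dnah1* alone was called. Without replicate 1 the median was 0.59 and 2 genes were called, *Dnah1* and *Cfap43*. *Cfap43*, a protein of the ciliary axoneme, had 34.9, 32.6, 46.5 and 29.7 in WT and 183, 88.3, 88.0 and 86.2 in *Kdm5c*-KO mice (adjusted p = 0.00475). *Ak7*, a ciliary adenylate kinase, had 30.4, 24.0, 35.7 and 34.8 in WT and 244, 78.4, 86.1 and 53.0 in *Kdm5c*-KO mice (adjusted p = 0.022). Replicate 1 was more than 2 times the next library for both, but the other *Kdm5c*-KO values also lay above all WT values. The groups overlapped for *Dnali1*, *Dnah3*, *Tekt1* and *Dnah6*. *Foxj1*, the transcription factor that switches on motile cilia genes, had 196, 80.5, 162 and 128 in WT and 802, 239.6, 314 and 218 in *Kdm5c*-KO mice and did not pass the test (adjusted p = 0.114). The summed count of the list without *Dnah1* was 3000 to 3444 in WT, 7597 in replicate 1 and 3975 to 4870 in the other *Kdm5c*-KO mice.

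Choroid plexus markers moved in the same library. All 12 were above 0 in log2 fold change, with a median of 2.24, or 0.65 without replicate 1, and 0 were called in either fit. Meningeal markers summed to 17295 in replicate 1, against 3553 to 8783 in WT. The part of other tissue in the cilia values was not tested.

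**Figure D2:**
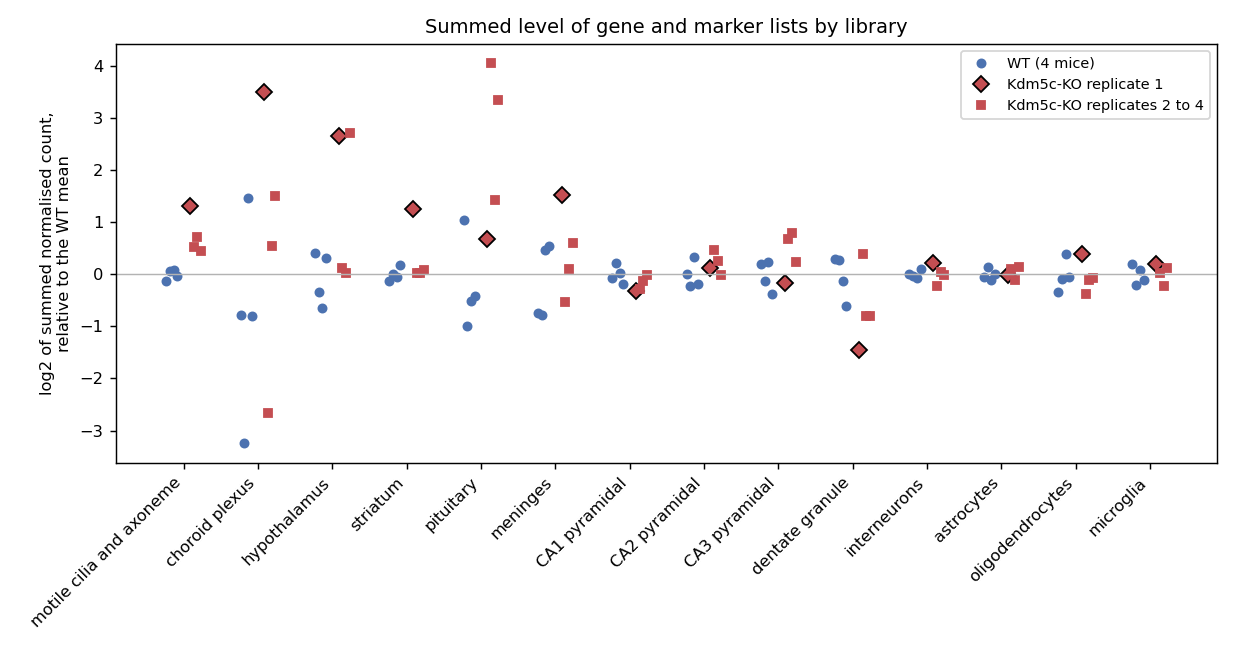
Log2 of the summed normalised count of each gene or marker list in each hippocampal library, relative to the WT mean of that list (0). Circles are WT, squares are Kdm5c-KO replicates 2 to 4 and the outlined diamond is Kdm5c-KO replicate 1, which is the highest library for motile cilia, choroid plexus, striatum and meninges and the lowest for dentate granule cells.

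Markers of the cells of the hippocampus were counted in the same way. Of 5 CA1, 4 CA2, 5 CA3 and 6 dentate granule markers, *Map3k15*, a CA2 marker on the X chromosome, was the 1 called, where 0.829% of all tested genes were called higher. Its counts were 19.12, 32.6, 69.2 and 8.49 in WT and 98.8, 128, 91.0 and 68.2 in *Kdm5c*-KO mice (adjusted p = 0.0423, and 0.141 without replicate 1). Without that library the CA3 marker *Bok*, a BCL-2 family gene, was called higher instead (log2 fold change 0.90, adjusted p = 0.0413, and 0.213 with all libraries), where 0.583% of all genes then tested were called. The 6 dentate markers were all below 0, with a median log2 fold change of -0.55. Their summed count was 4093 to 4138 in *Kdm5c*-KO replicates 3 and 4 and 2627 in replicate 1, below every WT library, but 9344 in replicate 2, above every WT library. Among 12 microglial markers *Siglech*, a sialic acid-binding lectin, was called higher (log2 fold change 0.59 ± 0.12), where 0.829% of all tested genes were, while the median of the list was 0.04. No marker of astrocytes, oligodendrocytes, their precursors, interneurons, endothelium or pericytes was called. Of 7 neocortical markers 6 were below 0 (median -0.53) and of 6 blood markers all 6 (median -0.41), with 0 calls, and without replicate 1 the haemoglobin gene *Hba-a2* was called lower (adjusted p = 0.0123). None of 27 activity-induced genes was called, with 21 of them below 0 and a median of -0.25. Their summed count was 34786 in WT replicate 1, against 22987 to 25645 in the other WT and 21916 to 24413 in the *Kdm5c*-KO libraries. Among 38 glutamate and GABA receptor genes, *Gabrd*, the delta subunit of extrasynaptic GABA-A receptors, was the 1 called, where 0.181% of all tested genes were called lower. Its counts were 855, 709, 707 and 1169 in WT and 493, 517, 288 and 471 in *Kdm5c*-KO mice, lower in every *Kdm5c*-KO mouse (log2 fold change -0.96 ± 0.24, adjusted p = 0.0193). The call was lost without *Kdm5c*-KO replicate 3, without WT replicate 4 and by edgeR, and *Gabrd* was not called in DM against *Kmt2a*-HET mice (log2 fold change -0.40 ± 0.24, adjusted p = 1). None of 48 tested neuropeptide and monoamine receptor, 10 catecholamine, 7 apolipoprotein and 13 mitochondrially encoded genes was called. Without replicate 1 the somatostatin receptor gene *Sstr3* was called higher (log2 fold change 0.59, adjusted p = 0.0326). Of 35 tested neuropeptide and hormone genes *Agt* was the 1 called, where 0.829% of all tested genes were called higher. Without replicate 1 *Pdyn*, prodynorphin, was called in place of *Agt*, lower (-1.12, adjusted p = 0.0524), where 0.583% of all genes then tested were called.

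A list of 10 signalling genes that the study picked from these samples is not independent evidence of their direction. *Agt*, angiotensinogen, was the 1 called, where 0.829% of all tested genes were called higher. Its counts were 483, 501, 489 and 396 in WT and 2120, 659, 845 and 762 in *Kdm5c*-KO mice (adjusted p = 0.0947, and 0.338 without replicate 1). *Adora2a*, an adenosine receptor of striatal neurons, had 56.2, 51.8, 74.6 and 52.6 in WT and 1218, 38.7, 37.6 and 44.5 in *Kdm5c*-KO mice, high in replicate 1 alone. *Trh*, thyrotropin-releasing hormone, was likewise high in replicate 1 alone (105, 6.31, 9.89 and 8.52), and *Pomc*, the precursor of ACTH and beta-endorphin, in replicate 4 (82.5, 58.6, 50.4 and 729). The filter of DESeq2 on single outlying libraries left these 3 genes with no adjusted p. Pituitary markers summed to 509 in replicate 2 and 309.6 in replicate 4, against 15.3 to 63.0 in WT, and 13 hypothalamic markers to 751 in replicate 1 and 785 in replicate 4, against 76.8 to 159.7 in WT. The hypothalamic list includes *Trh* and *Pomc*, and *Pomc* is most of its sum in replicate 4. Its most abundant marker in replicate 1 was *Avp*, vasopressin, at 337 against 3.24 to 65.2 in WT and 0.989 to 6.31 in the other *Kdm5c*-KO mice. The part of other tissue in these values was not tested. *P2ry14*, a UDP-sugar receptor, had 51.7, 42.2, 44.3 and 41.6 in WT and 27.1, 30.6, 22.8 and 22.7 in *Kdm5c*-KO mice, and *Adcy2*, a neuronal adenylate cyclase, 3677, 4468, 3900 and 3910 in WT and 2416, 3552, 2670 and 3300 in *Kdm5c*-KO mice. Both were lower in every *Kdm5c*-KO mouse and missed the threshold (adjusted p = 0.179 and 0.223). *Tacr1*, *Gabre*, *Mc3r* and *Lhb*, for the substance P receptor, a GABA-A subunit, a melanocortin receptor and luteinising hormone, overlapped between groups and were not called.

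The lower genes changed less, and edgeR called 3 of the 35, *Fam198b*, *Ndnf* and *Nova1*. *Fam198b* had the smallest adjusted p, with 68.6, 70.9, 89.8 and 86.6 in WT and 32.6, 28.8, 37.6 and 43.6 in *Kdm5c*-KO mice (log2 fold change -1.15 ± 0.24, adjusted p = 0.00114). *Ndnf*, a secreted neurotrophic factor found in interneurons, had 459, 561, 346 and 326 in WT and 218, 291, 249 and 237 in *Kdm5c*-KO mice (log2 fold change -0.76 ± 0.18). *Nova1*, a neuronal splicing factor, had 801, 1092, 899 and 1007 in WT and 668, 519, 554 and 698 in *Kdm5c*-KO mice (-0.64 ± 0.15). In each the *Kdm5c*-KO values all lay below the WT values, and the call held with each library left out in turn. *Pam*, the enzyme that amidates neuropeptides, changed by a log2 fold change of -0.33 ± 0.08 but had 4 low *Kdm5c*-KO values (3286, 3647, 3283 and 3774) against 4 WT values (4314, 4663, 4167 and 4424). *Ddit4l*, an inhibitor of mTOR signalling, changed most among the protein-coding genes of this set (log2 fold change -1.44 ± 0.35) with 179, 157, 142 and 299 in WT, highest in WT replicate 4. The others were *Kcnk12*, a potassium channel (-0.60 ± 0.16), *Ier5l* (-0.91 ± 0.24), *Akap7*, a kinase anchoring protein (-0.48 ± 0.13), *Ccni*, cyclin I (-0.28 ± 0.08), *Ubqln4*, a proteasome shuttle (-0.34 ± 0.09), *Gm26673* (-1.99 ± 0.51) and *Gm37176* (-1.54 ± 0.41). Of these, all but *Ier5l* lost the call without *Kdm5c*-KO replicate 1 (adjusted p 0.134 to 0.276), and *Ier5l* lost it without *Kdm5c*-KO replicate 3, WT replicate 1 or WT replicate 4.

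The remaining lower gene of this set, *Pcdhga9*, belongs to the clustered protocadherins, cell surface proteins that give neurons an identity. It had 467, 418, 441 and 424 in WT and 248, 361, 258 and 227 in *Kdm5c*-KO mice (log2 fold change -0.68 ± 0.18, adjusted p = 0.0303, and 0.157 without replicate 1). *Pcdhga9* was also called lower in the amygdala of the same mice (-0.57 ± 0.14, DESeq2 adjusted p = 0.0091). It was not called in DM against *Kmt2a*-HET mice (-0.29 ± 0.18). The cluster was looked at after this gene was seen. Of 57 tested clustered protocadherins 4 were called, all lower, where 0.181% of all tested genes were called lower, and 43 were below 0 with a median log2 fold change of -0.12, which became -0.07 with 0 calls without replicate 1. Genes of the alpha and gamma clusters share constant exons, so their counts are not separate measurements. The largest fold among the lower genes, *Gm765* (log2 fold change -6.03), came from a single WT library (0, 2.88, 7.57 and 67.0 in WT and 1.09, 0, 0 and 0 in *Kdm5c*-KO mice).

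The X chromosome had 8 higher genes and 1 lower gene, *Kdm5c* itself, among 607 tested, or 1.48%. The share over the autosomes ran from 0.13% on chromosome 13 to 1.62% on chromosome 17. *Tspyl2*, 62.3 kb from *Kdm5c*, was called higher, with 1945, 1712, 1969 and 1614 in WT and 2346, 2074, 2207 and 2190 in *Kdm5c*-KO mice (log2 fold change 0.29 ± 0.07, adjusted p = 0.0186, and 0.141 without replicate 1). The closer neighbours *Iqsec2* (log2 fold change -0.15) and *Kantr*, and *Gpr173* beyond it, were not called. The other X-linked higher genes were *2010204K13Rik*, *Araf*, *Pnma3*, *Pnck*, *Irak1*, *BC065397* and *Map3k15*, all more than 7 Mb away.

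The effect of *Kdm5c* loss was measured a second time in the hippocampus, in 8 other mice, by comparing DM with *Kmt2a*-HET. Both of those groups carry 1 mutant *Kmt2a* allele and they differ in *Kdm5c*. In that comparison 117 genes were called (0.606%), 102 higher and 15 lower. Of the 195 genes above, 64 were called in the same direction, which is 32.8% of the 195 and 54.7% of the 117. They were 62 of the 160 higher and 2 of the 35 lower genes, where 0.528% and 0.0777% of all tested genes were called higher and lower. The sign was the same for 190 of the 195, and for 82 of the 160 higher genes the 4 DM values all lay above the 4 *Kmt2a*-HET values (2.03% of all tested genes). The median log2 fold change of the 160 higher genes was 0.71 in DM against *Kmt2a*-HET, and that of the 35 lower genes -0.28. Of the 89 higher genes that were also called without *Kdm5c*-KO replicate 1, 53 were called in the other mice, against 9 of the other 71. The groups do not share libraries, although all 16 hippocampal libraries shared 1 estimate of the spread. No gene was called for a difference between the *Kdm5c* effects on the 2 *Kmt2a* backgrounds (DESeq2 interaction term, 571 genes at an unadjusted p under 0.05), which does not show the effects to be equal.

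*Dnah1* had 169.9, 158, 226 and 167 in *Kmt2a*-HET and 828, 781, 815 and 886 in DM mice (log2 fold change 2.19 ± 0.13), and *Cacng6* had 47.1, 37.3, 38.2 and 74.8 in *Kmt2a*-HET and 602, 639, 406 and 493 in DM mice (3.44 ± 0.34). For both, every DM value lay far above every *Kmt2a*-HET value. *Tex14* (3.48 ± 0.33), *D1Pas1* (5.62 ± 1.14) and *Cyct* (4.82 ± 1.13) were called in DM against *Kmt2a*-HET, and *Naa11* was not (2.95 ± 0.88, adjusted p = 0.128). Of the germline list 5 genes were called there, all higher, where 0.528% of all tested genes were called higher, and the median of the list was 0.49. Besides *Tex14*, *D1Pas1* and *Cyct* they were *Syce1*, of the synaptonemal complex (3.45 ± 0.99, adjusted p = 0.0881), and *Ddx4*. *Ddx4* was not called in *Kdm5c*-KO against WT but was called there (1.37), from 29.6, 35.1, 33.5 and 25.8 in *Kmt2a*-HET to 108, 49.0, 85.8 and 77.1 in DM mice. *Gamt*, by contrast, had a log2 fold change of 0.13 ± 0.14 (adjusted p = 1). The cilia list had a median log2 fold change of 0.36 with *Dnah1* as its 1 call, and the choroid plexus markers one of 3.29 with 0 calls. The choroid plexus sum was 29028 and 29630 in DM replicates 2 and 4, 1204 and 1229 in the other DM libraries and 996 to 2727 in *Kmt2a*-HET. The cilia sum without *Dnah1* was also highest in DM replicates 2 and 4 (5266 and 5096, against 3422 and 3285 in the other DM libraries and 2884 to 4758 in *Kmt2a*-HET), and the part of other tissue was not tested. *Ndnf* and *Ier5l* were the 2 lower genes called again (-0.62 and -0.85), while *Nova1* (-0.09 ± 0.15), *Pam* (-0.11 ± 0.08) and *Akap7* (-0.01 ± 0.13) were near 0.

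**Figure D3:**
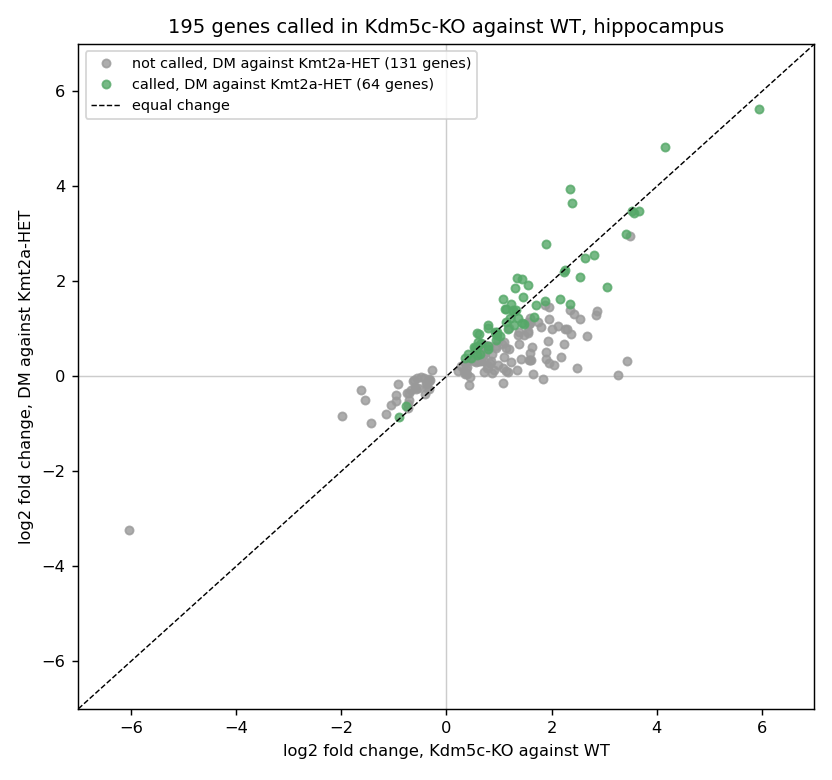
Log2 fold change in Kdm5c-KO against WT (x axis) and in DM against Kmt2a-HET (y axis) of the 195 genes called in the former, 1 point per gene, with a dashed line of equal change. The 64 green genes were also called in DM against Kmt2a-HET, and 190 of the 195 lie on the same side of 0 on both axes.

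The amygdala of the same mice was compared gene by gene. There 144 genes were called in *Kdm5c*-KO against WT (0.756%), 138 higher and 6 lower, and 59 of the 195 hippocampal genes were called in the same direction, 30.3% of the 195 and 41.0% of the 144. They were 58 higher genes, where 0.724% of tested genes were called higher, and 1 lower gene, *Pcdhga9*, where 0.0315% were called lower. The 2 regions come from the same 8 animals and are not independent of each other. In all, 34 genes were called in *Kdm5c*-KO against WT in both regions and in DM against *Kmt2a*-HET in the hippocampus, all of them higher. They include *Dnah1*, *Rps4l*, *Tex14*, *D1Pas1*, *Cyct*, *Pgam2*, *Gaa*, *Scarf2*, *Pyroxd2*, *Siglech*, the chromatin reader gene *Zmynd8*, *Ccnb1ip1*, *Rnf17*, *Tcfl5* and *Trim71*. Called in neither other comparison were 74 of the higher and 32 of the lower genes.

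A model of both regions called 0 of 30358 genes for a difference in the *Kdm5c* effect between hippocampus and amygdala (DESeq2, 516 at an unadjusted p under 0.05, and 0 by edgeR). With the mouse as a block, which the design provides since each mouse gave both regions, 6 genes were called (0.0198%). *Cacng6* had the largest excess in the hippocampus. In the amygdala it had 65.3, 16.5, 22.6 and 10.5 in WT and 21.4, 61.8, 50.2 and 35.9 in *Kdm5c*-KO mice, overlapping, with a log2 fold change of 0.56 ± 0.47 where the hippocampus had 3.57 ± 0.34, and the difference was 2.73 (adjusted p = 2.07e-04). *Pnck* was not called in the amygdala (0.52 ± 0.16 on the log2 scale, adjusted p = 0.112; difference between regions 0.83, adjusted p = 0.0642). *Ido2* (0.33 ± 0.29), *Ddo* (0.41 ± 0.14) and *Gamt* (0.46 ± 0.19) were likewise not called in the amygdala, nor for the region difference. *Cpne7*, a calcium-dependent membrane-binding protein, differed by 1.06 and the long non-coding *Gm26673* by -1.98. *Arhgef15* differed by -0.93. *Acrbp*, a sperm acrosome protein, was the reverse of *Cacng6*. Its counts were 168, 95.9, 101 and 91.7 in WT and 131, 67.6, 103 and 173 in *Kdm5c*-KO hippocampus, overlapping, and 129.6, 88.4, 73.3 and 88.9 in WT and 269.5, 233, 231 and 288 in *Kdm5c*-KO amygdala, where all *Kdm5c*-KO values were higher (log2 fold change 1.42 ± 0.19, adjusted p = 7.58e-11).

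**Figure D4:**
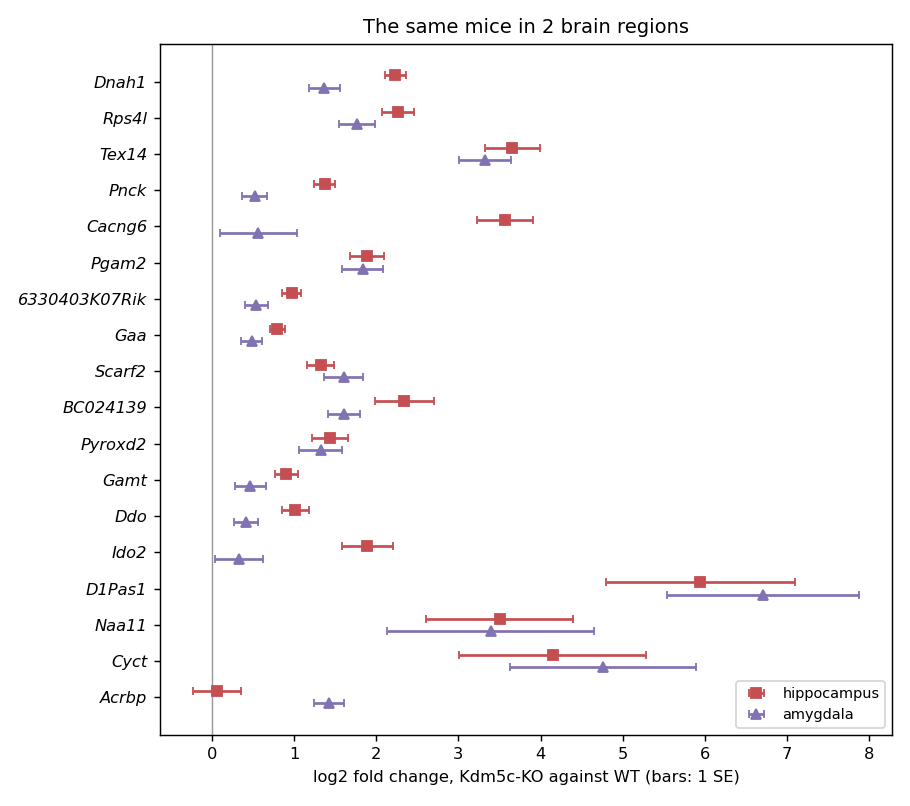
Log2 fold change of Kdm5c-KO against WT in the hippocampus (squares) and the amygdala (triangles) of the same 8 mice, with bars of 1 SE, for higher genes of smallest adjusted p, 3 further germline genes and Acrbp. Tex14, Pgam2, D1Pas1 and Cyct were similar in size in both regions, Cacng6 and Pnck were larger in the hippocampus and Acrbp rose in the amygdala. Dnah1, Ido2 and Ddo also had larger values in the hippocampus but were not called for the region difference.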

How the data were processed

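Total RNA from adult male hippocampus was sequenced after oligo-dT priming with a directional kit and ERCC spike-in RNA. The authors aligned reads to mm10 with STAR 2.5.3a. Their processing notes also name featureCounts (Subread 1.5.0) and DESeq2 1.14.1, and how strand was treated is not given in the sources used here. The deposited tables hold expected counts per gene and per transcript, estimated by the authors, of which 7.02% of the hippocampal gene values were not whole, and these were rounded. Symbols came from GENCODE M21 (53620 of 53715 genes, 95 without one) and promoters from RefSeq (GRCm38.p6). The 92 ERCC rows were left out of the tests.

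DESeq2 1.42.0 (R 4.3.3) was fitted to all 16 hippocampal libraries with genotype as the only term, two-sided Wald tests and Benjamini-Hochberg adjustment, and genes with an adjusted p under 0.1 were called. Of 53715 genes, 23846 had 0 counts in all 16 libraries, 28 were removed by the outlier filter and 10539 by independent filtering, leaving 19302. DESeq2 was also fitted to the amygdala table and to both regions together. Named are *Kdm5c*, its paralogues and *Kmt2a*, the 15 higher and 15 lower genes of smallest adjusted p with groups that did not overlap, called members of gene lists, the 10 genes of the study's list and genes called for the region difference. One of these is not reported here. The comparison, the gene lists and the tests were chosen with earlier results of these data known. Alternatives were edgeR 4.0.16, TMM and ERCC size factors, a filter of at least 10 counts in 4 libraries, independent filtering off, an adjusted p under 0.05, the 2 groups alone, the replicate number as a block and each library left out. Scripts were tested on simulated data. Errors are SE of log2 fold changes, and n = 4 mice per group throughout. The labels number the mice of a genotype, and p-values reflect the spread between them.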

Additional observations from a re-analysis of the deposited data

Results flagged for a closer look

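Among 60 named genes, 120 groups of 4 libraries were examined for a single value far from the other 3, and 13 were found, 8 of them in *Kdm5c*-KO replicate 1. The cutoff was set so that about 1 in 20 groups of 4 independent, normally distributed values would pass. Counts of genes chosen partly on these same libraries need not follow that rate, and the 120 groups share libraries. In that library the normalised count was high for *Cfap43* (183), *Cfap44* (339), *Agt* (2120), *Tacr1* (142), *Trh* (105) and *Adora2a* (1218), and low for *Ido2* (70.6) and *Kcnk12* (243). The highest of the other *Kdm5c*-KO values were 88.3, 203, 845, 37.8, 9.89 and 44.5 for the first 6, and the lowest were 123 for *Ido2* and 368 for *Kcnk12*. Elsewhere, *Ddo* was high in *Kdm5c*-KO replicate 2 (457), *Pomc* in *Kdm5c*-KO replicate 4 (729), *Pyroxd2* in WT replicate 4 (59.4), *Dnali1* in WT replicate 3 (30.3) and *Acrbp* in WT replicate 1 (168).

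The *Kdm5c* effect differed between hippocampus and amygdala for 6 genes when each mouse was a block (DESeq2). The hippocampal minus the amygdalar log2 fold change was 2.73 for *Cacng6*, 1.06 for *Cpne7*, 0.83 for *Pnck*, -0.93 for *Arhgef15*, -1.41 for *Acrbp* and -1.98 for *Gm26673*. Without the block 0 genes were called, and of the 6, *Cpne7*, *Arhgef15* and *Acrbp* were not called in the hippocampus alone.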

How the results depend on the processing

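Of 195 called genes (160 higher, 35 lower), edgeR called 70 (67 and 3), all among the 195, and ERCC size factors 17 (17 and 0). TMM size factors and the low-count filter left all 3 counts within 1.5-fold, while the lower genes numbered 17 at an adjusted p under 0.05 and 21 with independent filtering off. With 1 library left out in turn the counts ran from 109 to 290 in all, 95 to 214 higher and 9 to 76 lower, lowest without WT replicate 2 in all and higher, and lowest without *Kdm5c*-KO replicate 3 for lower. DM against *Kmt2a*-HET gave 117 genes, 54 by edgeR and 2 with ERCC size factors. The replicate block, which takes mice of the same number as a set, gave 505 genes (321 and 184), 57 (51 and 6) with edgeR and 86 lower with the low-count filter, and for DM against *Kmt2a*-HET 441 and, with edgeR, 51. The blocks with edgeR or the filter were added after seeing the data. Same-numbered WT and *Kdm5c*-KO libraries had correlations of deviations of 0.0289, 0.447, -0.0422 and 0.292, and 2 of 4 WT libraries correlated best with their own number. The main fit did not take the numbers to pair mice. However, replicate 1 of every genotype was lowest of its genotype for long against short genes. Activity-induced genes summed highest in replicate 1 of WT (34786), *Kmt2a*-HET (35008) and DM (39217) but lowest in that of *Kdm5c*-KO (21916). Whether libraries of 1 number form a set was not tested. For the region difference, the replicate block of the mouse gave 6 genes against 0, and leaving out 1 mouse gave 0 to 3, not 0 without *Kdm5c*-KO replicate 1 (3), WT replicate 1 (3) or WT replicate 4 (2). Over 57 named genes and their alternatives, 0 of 1075 values changed sign with a call, 856 kept their side of the threshold, 214 lost it and 5 gained it. The causes of these changes were not tested. Depth limits the lowest genes, 28 of the higher genes having a WT mean under 10 normalised counts.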

Other observations

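The called genes held further groups that were picked after their values were seen and so have no list behind them. Among imprinted genes, *Magel2* went from a mean of 24.3 in WT to 75.9 in *Kdm5c*-KO hippocampus, *Peg10* from 189.7 to 403 and *Rian* from 6774 to 8839. Their values by mouse were 31.5, 21.1, 18.4 and 26.3 against 148, 32.4, 76.2 and 47.3 for *Magel2*, which did not overlap, and 118, 231, 129 and 281 against 623, 217, 543 and 228 for *Peg10*, which did. Without *Kdm5c*-KO replicate 1 the adjusted p values (DESeq2) were 0.487, 0.582 and 0.316. *Baiap3*, a regulator of vesicle exocytosis, had 169.8, 160.1, 102 and 191 in WT and 1716, 195, 434 and 225 in *Kdm5c*-KO mice (adjusted p = 0.0623, and 0.427 without replicate 1). *Magel2*, *Peg10* and *Baiap3* were highest in *Kdm5c*-KO replicate 1, where 13 hypothalamic markers summed to 751 against 76.8 to 159.7 in WT, and the part of that tissue in their values was not tested.

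Some genes known to respond to stress or inflammation, picked in the same way, were also among the higher genes. *Serpina3n*, a protease inhibitor of reactive astrocytes, had 806, 1788, 2274 and 1522 in WT and 2530, 3152, 3188 and 2469 in *Kdm5c*-KO mice (log2 fold change 0.83 ± 0.23). *C4b*, complement component 4, had 963, 977, 741 and 575 and 2272, 1158, 1199 and 1081 (0.81 ± 0.24). *Neat1*, the long non-coding RNA of paraspeckles, had 1724, 1862, 2386 and 1730 and 4196, 2264, 2869 and 3845 (0.77 ± 0.17), and the groups overlapped. Without replicate 1 the adjusted p values were 0.0662, 0.591 and 0.0453. In the marker lists 0 of 11 astrocyte markers were called (median log2 fold change 0.08). Of 12 microglial markers 1 was called, *Siglech* (median 0.04), where 0.829% of all tested genes were called higher.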
